A study of Mus musculus with 3 samples.

Results

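The comparison set the microRNA (miRNA) profile of ICN1-expressing tumor CD4+CD8+ cells beside that of normal CD4+CD8+ thymocytes. It used 2 of the 3 samples of the series, chosen by their titles, and 450 probes chosen by name, namely all probes with a human miRNA or let-7 name that were not mismatch probes, out of 1351 non-control probes on the array. The tumor sample was total RNA of mouse ICN1-expressing CD4+CD8+ tumor cells, and the control sample was total RNA of mouse CD4+CD8+ normal thymocytes. Both came from the Balb/c background and were labelled with the dye Hy3. The pool on each array was labelled with Hy5 and held all 3 samples, so it also contained non-malignant ICN1-expressing CD4+CD8+ cells. ICN1 is the intracellular part of NOTCH1, which signals without ligand. The labels give no age, no time after ICN1 was introduced, no way of introducing it, and no number of animals behind a sample. The names of the scanner files carry a different week number for each sample, higher for the tumor, whose meaning the labels do not give, so a difference in time and the presence of ICN1 tumor cells cannot be told apart. Each side had 1 array. No p-value is given, and the differences have no replicate check.

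miRNAs are short RNAs that guide Argonaute proteins to messenger RNAs, mostly through pairing of the seed near their 5′ end, and lower the output of those messages. NOTCH1 signalling commits progenitors to the T lineage and is normally switched down before thymocytes reach the CD4+CD8+ (double-positive) stage. Activating NOTCH1 mutations are common in T-cell acute lymphoblastic leukaemia (T-ALL), in which MYC is a direct NOTCH1 target, and MYC is known to repress many miRNAs in lymphoid tumors.

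The mature mouse sequences below belong to the miRNAs on which the results turn. They were taken from RefSeq (GRCm38.p6) and are written 5′ to 3′ with the seed (bases 2 to 8) in capitals. Probe sequences are not in the files used here, and the identity of human and mouse sequences was not checked. First come the miRNA with the largest difference, the 2 miR-26 members and the products of the miR-23a cluster, with miR-27b for comparison.
miR-451: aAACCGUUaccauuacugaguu
miR-26a: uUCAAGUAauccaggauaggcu
miR-26b: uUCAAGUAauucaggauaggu
miR-23a: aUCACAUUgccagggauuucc
miR-24: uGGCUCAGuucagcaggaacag
miR-27a: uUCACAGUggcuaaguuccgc
miR-27b: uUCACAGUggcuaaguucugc

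The next sequences show families whose members share a seed but did not all differ alike between the arrays, which are miR-15/16, let-7 and miR-29.
miR-16: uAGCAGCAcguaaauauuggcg
miR-15b: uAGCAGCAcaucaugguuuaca
miR-15a: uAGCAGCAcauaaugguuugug
let-7a: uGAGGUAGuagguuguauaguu
let-7c: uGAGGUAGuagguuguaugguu
let-7d: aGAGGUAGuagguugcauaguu
miR-29a: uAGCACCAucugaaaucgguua
miR-29c: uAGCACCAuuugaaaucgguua

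The last sequences are both arms of the miR-142 hairpin, a pair with the seed of miR-17, the thymocyte miRNA miR-181a, and miR-129, which was higher in tumor cells.
miR-142-5p: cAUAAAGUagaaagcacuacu
miR-142-3p: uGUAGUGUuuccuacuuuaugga
miR-106b: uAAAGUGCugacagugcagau
miR-20b: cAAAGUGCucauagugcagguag
miR-181a: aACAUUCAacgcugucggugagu
miR-129: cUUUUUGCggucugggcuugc

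Each array carried 6720 spots, most probes 4 times. Hy3 values are means of the scanner signal over a probe's usable spots, in intensity units, with no correction. Ratios are log2(Hy3/Hy5) after background correction and within-array loess, and a difference is the tumor ratio minus the control ratio. The ± is its standard error over spots, which covers spot error only. The median Hy3 background was 70 units on the tumor array and 77 on the control array. No spot was saturated, and the 10 spike-in probes differed by a median of 0.10, with a range of -0.00017 to 0.45. The pool, one and the same RNA on both arrays, differed between them with an SD of 0.36 over the 274 compared probes.

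A probe counted as detected where at least 50% of its usable spots stood above the background median by 2 background SDs. Of the 450 human-named probes, 260 were detected on the tumor array (57.8%) and 253 on the control array (56.2%). The comparison took 274 probes, of which 238 were detected on both arrays, 22 on the tumor array alone and 14 on the control array alone. By name, 176 of them match a mouse miRNA gene and 98 do not.

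At a difference of 2-fold or more, 3 of the 274 probes were higher in tumor cells (1.09%) and 26 were lower (9.49%). The lower probes were nearly all ones with a mouse gene of the same name: 25 of 176 (14.2%), against 1 of the 98 others (1.02%), which was miR-422b. The match was by name, so an older name can miss a mouse gene. The higher ones were 1 of 176 (0.568%), miR-129, and 2 of 98 (2.04%), miR-637 and miR-659. Among 496 compared probes with no known human target, 5 were 2-fold higher (1.01%) and 11 lower (2.22%). These probes were also part of the loess fit, which sets the centre of the fitted probes near 0. Their shares are therefore not independent of the normalization. At 1.5-fold the counts over all 274 were 6 higher and 44 lower. The median difference was -0.013 over all compared probes, -0.11 over those with a mouse gene, and 0.023 over the rest. The fit of the normalization bears on these counts. With loess fitted only on probes named for a mouse miRNA gene, a setting chosen after seeing the data, 16 probes were higher and 9 lower.

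**Figure D1:**
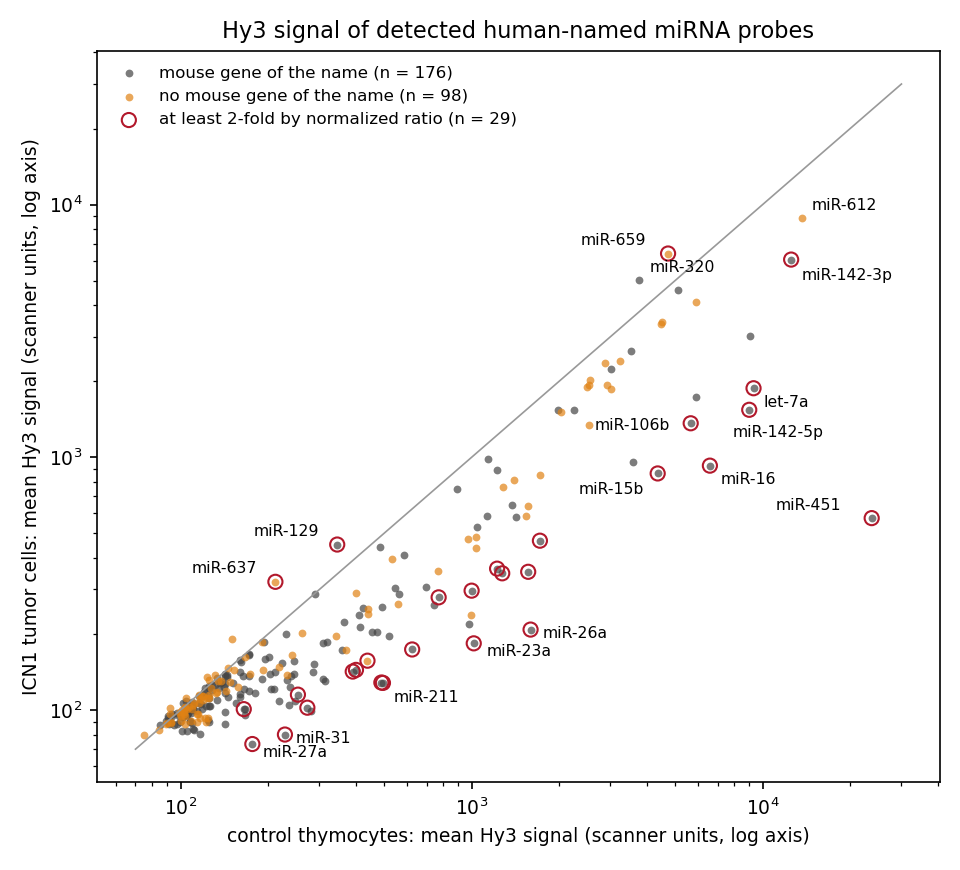
Mean Hy3 signal of each compared probe on the tumor array (vertical axis) against the control array (horizontal axis), both in intensity units on log axes, with 1 point per probe (dark with, orange without a mouse gene of the name), red circles at 2-fold or more by normalized ratio, and the line of equal signal. miR-451 lies far under the diagonal, at 575 in tumor cells and 23705 in control cells, and miR-659, at 6403 in tumor cells and 4733 in control cells, lies above it.

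miR-451 had the largest difference of all compared probes. It is matured by Argonaute 2 without Dicer, is abundant in red cell precursors, and is known to target Myc in mouse T-ALL. Its Hy3 signal was 575 in tumor cells and 23705 in control cells. The log2 ratio to the pool was -4.93 on the tumor array and 1.21 on the control array, a difference of -6.13 ± 0.0074, or 70.2-fold lower in tumor cells. The spots of the arrays lay far apart, between -4.93 and -4.92 on the tumor array and between 1.19 and 1.22 on the control array. The pool signal of this probe was itself 0.95 higher (log2) on the tumor array. With the Hy3 channel alone the difference was -3.97. miR-451 was picked out in the study of these samples, so its direction here is not independent evidence.

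miR-451 is encoded beside miR-144, with Mir144 at chr11:78073005-78073070 and Mir451a at chr11:78073170-78073241 (GRCm38.p6, plus strand), outside the span of any protein-coding gene. The miR-144 probe was near background, at 101 units in tumor cells and 165 in control cells, and differed by -1.02 ± 0.020, with a pool signal 0.56 higher on the tumor array. miR-451 is itself 1 of the 3 erythroid markers. All 3 were detected, and their summed Hy3 was 848 in tumor cells and 24229 in control cells, nearly all of it miR-451. The third marker, miR-486, had 173 units in tumor cells and 359 in control cells, a difference of -0.76 ± 0.019, under 2-fold. miR-144 was past 2-fold in 8 of 13 processing settings. The part of erythroid RNA in these differences was not tested. In such bulk RNA, fewer cells of a type and less RNA per cell cannot be told apart.

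Of the miRNAs of blood cells and thymocytes, miR-142 had a high signal on both arrays, while miR-181a was close to background in tumor cells. miR-142, found in all blood lineages, was detected on both arrays, with miR-142-3p at 6059 units in tumor cells and 12535 in control cells, and miR-142-5p at 1542 in tumor cells and 8997 in control cells. Both arms were lower in tumor cells, miR-142-5p by -1.78 ± 0.010 and miR-142-3p by -1.29 ± 0.0072. The size and sign for miR-142-3p depend on the setting. It came out at -0.22 with the Hy3 channel alone and at 0.13 with loess on mouse-named probes. miR-142-5p was at -1.70 with the Hy3 channel alone and at -0.81 with loess on mouse-named probes. The hairpin lies at chr11:87756864-87756927 (GRCm38.p6, plus strand).

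miR-181a, which tunes T-cell receptor sensitivity in double-positive thymocytes, had 115 units in tumor cells and 253 in control cells, and differed by -1.24 ± 0.025. Its passenger strand miR-181a* had 109 units in tumor cells and 247 in control cells and a difference of -0.92. In tumor cells both strands were close to background. miR-181b, made from the same clusters, differed by -0.64 ± 0.013, miR-181d by -0.046 and miR-181c by 0.15. These 4 members of 1 seed group thus spread over more than 1 log2 unit, and the family median of -0.34 turned to 0.033 with loess on mouse-named probes and to 0.054 with the Hy3 channel alone.

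Markers of other cells differed less, but many had little room to differ. Apart from miR-214, the detected stromal, epithelial, muscle and liver markers lay close to background. They had at most 134 units in tumor cells and 136 in control cells. Among stromal markers 2 of 5 were detected (miR-145 and miR-214), with a summed Hy3 of 1635 in tumor cells and 2352 in control cells, nearly all of it miR-214, and a median difference of -0.012. Among epithelial markers 3 of 7 were detected, with a sum of 353 in tumor cells and 378 in control cells and a median of 0.21. Muscle and liver markers were detected for 3 of 4, with a sum of 310 in tumor cells and 361 in control cells and a median of -0.049. The myeloid miR-223 differed by -0.24 ± 0.019, and miR-150, which marks mature lymphocytes, by -0.20 ± 0.047 at 90.9 units in tumor cells and 124 in control cells, close to background.

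**Figure D2:**
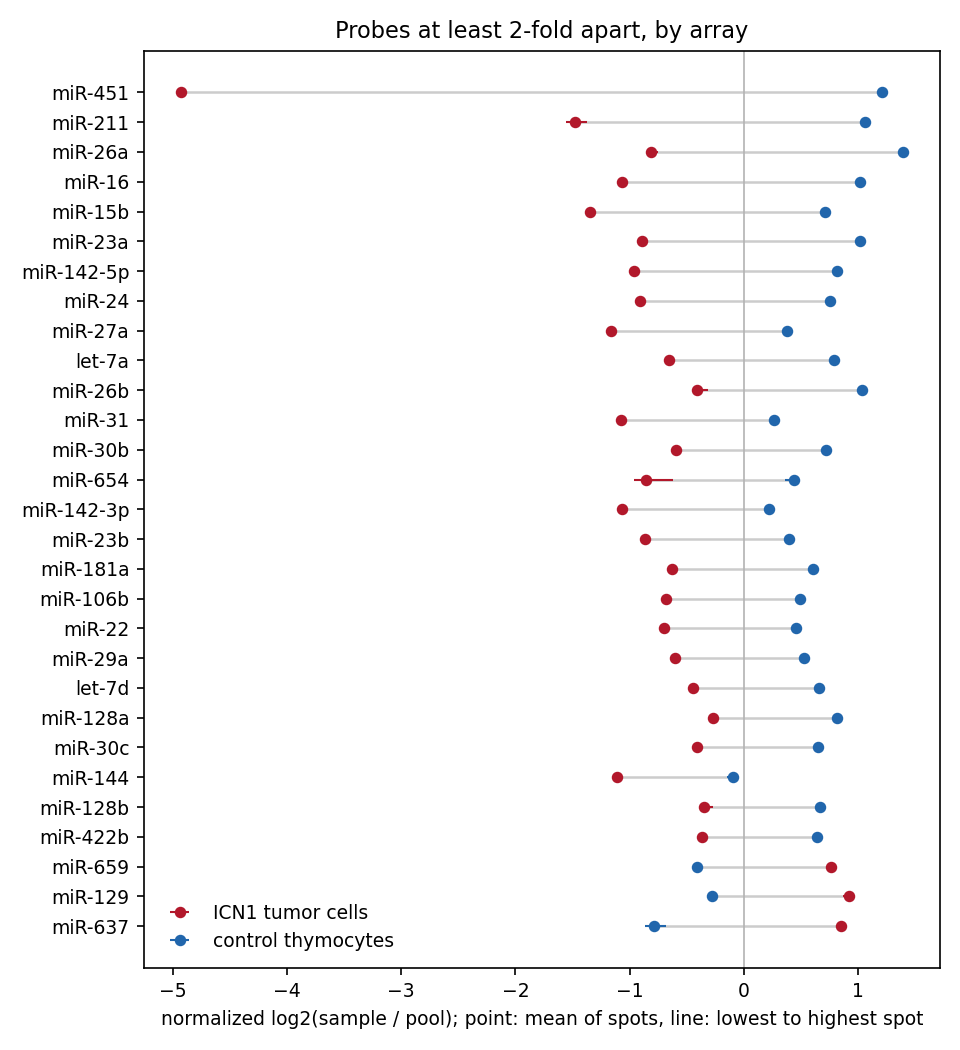
log2(Hy3/Hy5) against the pool on the tumor array and on the control array for the probes at 2-fold or more, with 1 point per probe and array (mean of spots; tumor red, control blue) and short lines over the lowest to highest spot. miR-451 sits at -4.93 in tumor cells and 1.21 in control cells, and the 3 higher probes, miR-637, miR-129 and miR-659, run the other way.

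The miR-15/16 family, known to restrain BCL2 and cyclins, had 2 of 5 probes at 2-fold lower, against 13.5% of the other probes with a mouse gene, and its median was -0.97. miR-16 had 927 units in tumor cells and 6590 in control cells, with ratios of -1.07 in tumor cells and 1.02 in control cells and a difference of -2.08 ± 0.0069, or 4.24-fold lower. miR-15b had 863 units in tumor cells and 4360 in control cells and differed by -2.06 ± 0.0075. Their hairpins, Mir15b at chr3:69009772-69009835 and Mir16-2 at chr3:69009902-69009996 (GRCm38.p6, plus strand), both lie in the span of Smc4. The 2 probes differed almost alike by the normalized ratio, but by -2.02 (miR-16) and -1.54 (miR-15b) with the Hy3 channel alone. miR-16 also has another locus on chromosome 14, and the array cannot tell the loci apart. The other members of the seed group differed less. miR-15a, at 151 units in tumor cells and 287 in control cells, was just short of 2-fold at -0.97 ± 0.013. miR-195, close to background at 89.4 units in tumor cells and 125 in control cells, differed by -0.58 ± 0.022. miR-497, near background on both arrays, differed by 0.16 ± 0.11.

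The miR-26 members were both past 2-fold, against 13.2% of the other probes with a mouse gene. miR-26a, which is known to target EZH2, had 208 units in tumor cells and 1595 in control cells and a difference of -2.21 ± 0.022, or 4.62-fold lower. miR-26b had 352 units in tumor cells and 1565 in control cells and differed by -1.45 ± 0.035, or by -0.99 with loess on mouse-named probes. The 3 miR-26 hairpins lie in the spans of Ctdspl (Mir26a-1), Ctdsp2 (Mir26a-2) and Ctdsp1 (Mir26b), 3 related phosphatase genes.

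The miR-23/27/24 clusters, known for limiting T-cell effector programmes, had 4 of 5 probes at 2-fold lower, against 12.3% of the other probes with a mouse gene. miR-23a had 184 units in tumor cells and 1017 in control cells and differed by -1.90 ± 0.018. miR-24, with 3 usable spots on the control array, had 128 units in tumor cells and 490 in control cells and differed by -1.66 ± 0.025. miR-27a was not detected in tumor cells (73.4 units, against 176 in control cells) and was at least 2.21-fold lower there. In the other cluster, miR-23b differed by -1.26 ± 0.013, while miR-27b differed by -0.40 ± 0.017, under 2-fold. miR-27a and miR-27b differ at 1 base, C19U, counted from the 5′ end of miR-27a. All 3 products of the Mir23a cluster, at chr8:84208518-84208921 (GRCm38.p6, plus strand), were past 2-fold, although miR-24 is also made from the cluster that holds miR-23b, at chr13:63300484-63301275 (plus strand).

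The let-7 family, which restrains MYC, RAS and LIN28 targets, had all 9 probes below 0, where 114 of the 176 probes with a mouse gene also lay, and 2 of 9 at 2-fold lower (22.2%, against 13.8% of the other probes with a mouse gene). let-7a had 1876 units in tumor cells and 9308 in control cells, with ratios of -0.66 in tumor cells and 0.79 in control cells and a difference of -1.45 ± 0.013. let-7d had 279 units in tumor cells and 771 in control cells and differed by -1.11 ± 0.021. The rest ran between -0.97 for let-7i and -0.37 for miR-98. let-7c, 1 base away from let-7a (A19G, from the 5′ end of let-7a), differed by -0.92 ± 0.011, with 3020 units in tumor cells and 9069 in control cells. The family's median was -0.91, against -0.11 over the probes with a mouse gene. With loess on mouse-named probes it was -0.27, and let-7b (0.030) and let-7c (0.20) then lay above 0.

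The miR-29 and miR-30 families, both lost or low in various lymphoid tumors, were at 2-fold lower for 1 of 3 and 2 of 5 probes, against 13.9% and 13.5% of the other probes with a mouse gene. miR-29a, which targets collagens and MCL1, differed by -1.13 ± 0.015, with 363 units in tumor cells and 1224 in control cells. miR-29b, at -0.45 ± 0.047, and miR-29c, at -0.12 ± 0.046, were close to background. miR-29a and miR-29c differ at 1 base, C10U, counted from the 5′ end of miR-29a. In the miR-30 family miR-30b (-1.32 ± 0.0083) and miR-30c (-1.06 ± 0.010) passed 2-fold and miR-30a-5p was just short at -0.97 ± 0.019. miR-30d differed by -0.75 and miR-30e-5p by -0.57.

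The list of miRNAs that MYC is known to repress covers most of these families. Of its 28 probes, all compared, 0 were 2-fold higher and 10 were lower (35.7%, against 10.1% of the other probes with a mouse gene), and 27 were below 0. Its median was -0.91, which was -0.40 with loess on mouse-named probes and -0.63 with the Hy3 channel alone. The list was drawn up with earlier results of these data known. The members at 2-fold were miR-15b and miR-16, miR-26a and miR-26b, let-7a and let-7d, miR-30b and miR-30c, miR-29a, and miR-22. All of them but miR-22 were among the 44 probes with a mouse gene that were brightest in control cells. Of those 44 probes 18 were 2-fold lower, with a median of -0.73, so the 10.1% is not matched for signal. miR-22, which is an oncogenic miRNA in some myeloid diseases, differed by -1.15 ± 0.021, with 102 units in tumor cells, close to background, and 273 in control cells. miR-34a, a p53 target, differed by -0.086 ± 0.019, and miR-146a, which damps NF-kappaB signalling, by -0.49 ± 0.023.

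**Figure D3:**
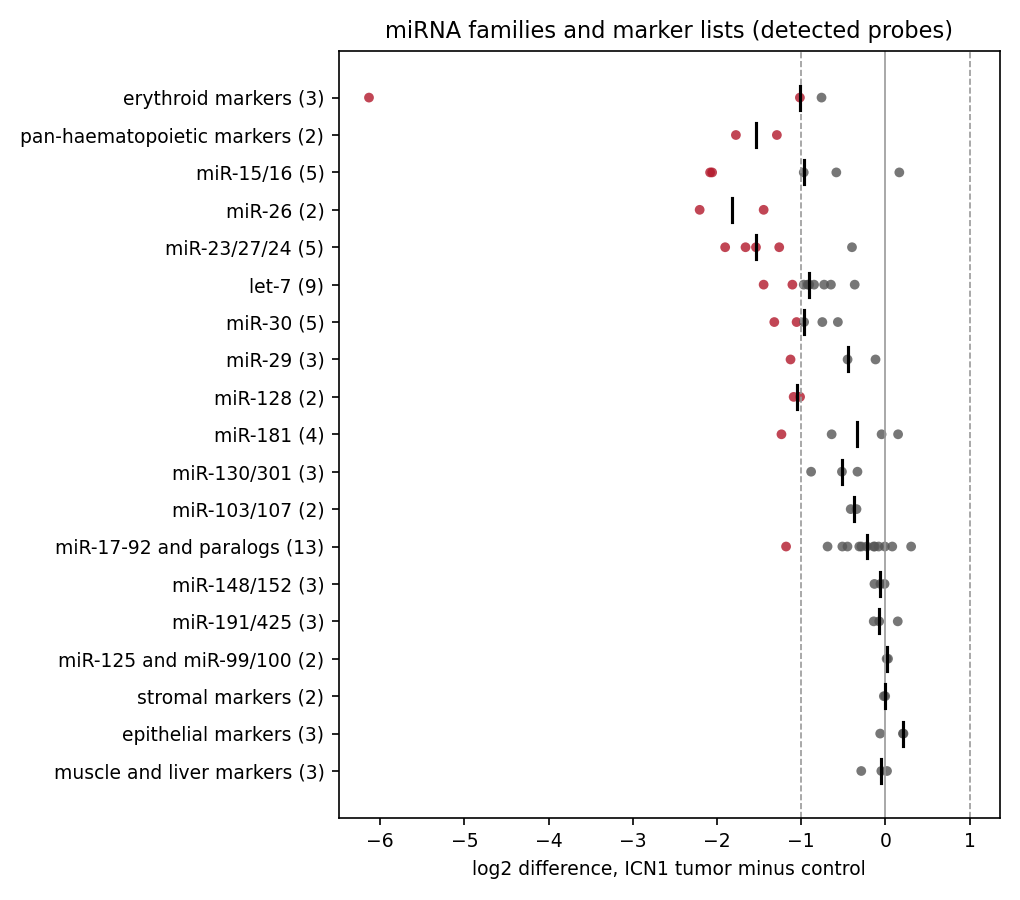
Difference between the tumor and the control array (log2 units) for the compared members of each miRNA family or marker list, 1 point per probe (red past 2-fold), black ticks at the medians and dashed 2-fold lines at -1 and 1. Members of one family spread widely, from -2.08 to 0.16 in miR-15/16 and from -1.45 to -0.37 in let-7, and no plotted member lies past the upper line.

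The miR-17-92 cluster and its paralogs, which MYC activates and which cooperate with NOTCH1 in T-ALL, had no detected probe 2-fold higher in tumor cells. Of 13 detected probes 0 were 2-fold higher and 1 was lower (7.69%, against 14.7% of the other probes with a mouse gene). The median was -0.22, or 0.056 with loess on mouse-named probes and -0.0087 with the Hy3 channel alone. The lower one was miR-106b, at 1363 units in tumor cells and 5662 in control cells, a difference of -1.18 ± 0.013. Its partner in the Mcm7 span, miR-25, differed by -0.14 ± 0.052 at 142 units in tumor cells and 160 in control cells. miR-20b, of the same seed as miR-106b, was the highest of the group at 0.30 ± 0.013. miR-19b, the main oncogenic part of the cluster, differed by -0.51 ± 0.020, and miR-92 by -0.0074 ± 0.029. miR-92 was close to background, at 96.0 units in tumor cells and 105 in control cells. miR-93, miR-17-3p and miR-18a* were not detected.

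Shorter lists were drawn from T-ALL studies. Of the 6 compared probes for miRNAs reported to cooperate with NOTCH1 (miR-19b, miR-20a with 2 probes, miR-26a, miR-92, miR-223), 1 was 2-fold lower, miR-26a (16.7%, against 14.1% of the other probes with a mouse gene), a share near the background, and the median was -0.37. Of the 8 compared probes for suppressors of T-ALL, 2 were 2-fold lower, miR-29a and miR-31, against 13.7% of the other probes with a mouse gene, and the median was -0.33. miR-31, which is silenced in adult T-cell leukaemia, was not detected in tumor cells (80.0 units, against 228 in control cells), with a difference of -1.34 ± 0.015, so its tumor value is only a bound. miR-155, an oncomiR of B and T cells, differed by -0.67 ± 0.024.

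Other probes past 2-fold on the lower side were miR-211, miR-654, miR-128a, miR-128b and miR-422b. miR-211, a melanocyte miRNA within the Trpm1 span, had the next largest difference, -2.54 ± 0.039, with 128 units in tumor cells and 496 in control cells. Its pool signal was 0.75 higher on the tumor array. miR-654 belongs to the imprinted cluster on chromosome 12, whose other compared members all stayed under 2-fold, and differed by -1.30 ± 0.087. miR-128a and miR-128b, known from brain and lymphoid leukaemia, differed by -1.09 ± 0.010 and -1.01 ± 0.028. The mouse miR-128 hairpins lie within the spans of R3hdm1 and Arpp21, and whether these probes can tell them apart was not checked.

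Other families had no probe at 2-fold. The miR-130 family, with miR-301, had a median of -0.52 over 3 probes, of which miR-301 was lowest at -0.88 ± 0.024. miR-103 and miR-107, which act on insulin signalling, differed by -0.34 and -0.41, although both lay above 0 with loess on mouse-named probes. The miR-148 family with miR-152 (median -0.060) and the 2 detected miR-125 probes (median 0.022) stayed close to 0. So did miR-191, miR-191* and miR-425-5p, with a median of -0.075. miR-222, which targets the cell cycle inhibitor p27, differed by 0.38 ± 0.0093, with 162 units in tumor cells and 201 in control cells, and miR-221 had no usable spot on the tumor array.

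On the higher side 2 of the 3 probes have no mouse gene of their name. miR-659 had 6403 units in tumor cells and 4733 in control cells, and a difference of 1.17 ± 0.017. miR-637 had 322 units in tumor cells and 212 in control cells, with a difference of 1.63 ± 0.039, or 3.09-fold higher. What these probes measured in mouse RNA is not known. miR-129, which has a mouse gene, had 452 units in tumor cells and 345 in control cells, with ratios of 0.92 in tumor cells and -0.28 in control cells and a difference of 1.21 ± 0.023. miR-320, made without Drosha, differed by 0.69 ± 0.013, under 2-fold, with 5020 units in tumor cells and 3753 in control cells, and was 1.14 with the Hy3 channel alone. The nearest others under 2-fold on the higher side were miR-611 (0.77) and miR-202 (0.66).

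Most of the lower probes had a high control signal, which is itself part of the difference and so favours lower values among the brightest, while a probe near background has little room to be 2-fold lower. Among the 176 probes with a mouse gene, ranked by control Hy3 in 4 groups of 44, the numbers 2-fold lower were 0, 1, 6 and 18 in order of rising signal, with medians of -0.0076, -0.055, -0.33 and -0.73. The brightest group starts at 472 units. The 26 probes without a mouse gene that were as bright had 1 higher (miR-659) and 0 lower, and a median of 0.092. With loess on mouse-named probes these medians became 0.046 for the brightest probes with a mouse gene and 0.72 for the 26 others, so the gap between the 2 kinds of probe stayed while its zero moved. With spike-in centring the medians were -0.81 and 0.016.

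**Figure D4:**
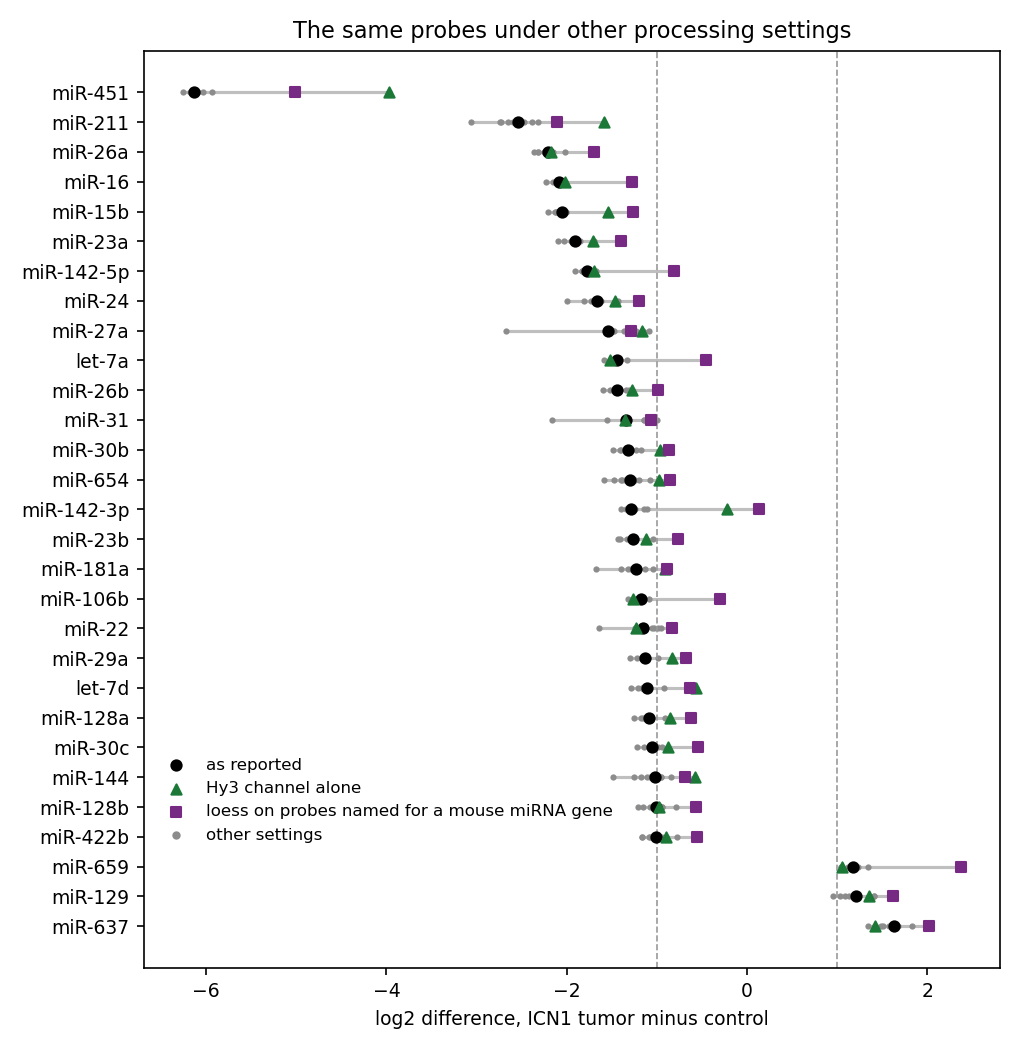
Difference between the tumor and the control array (log2 units) for the probes at 2-fold or more, under each processing setting, with 1 point per setting (black circle as reported, triangle Hy3 alone, square loess on mouse-named probes, grey the others). miR-451 stays between -6.26 and -3.97, and miR-142-3p is the probe that crosses 0, at 0.13 with loess on mouse-named probes.

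Of the probes at 2-fold, 9 lower ones (miR-451, miR-211, miR-26a, miR-16, miR-15b, miR-23a, miR-24, miR-27a and miR-31) and 2 higher ones (miR-659 and miR-637) stayed there in all 13 settings that rescale or rebuild the values, the reported one included. Each of the other lower probes was under 2-fold in at least 1 of them, among them let-7a, miR-142-5p and miR-106b with loess on mouse-named probes, and miR-129 was at 0.95 with no normalization. The spots of all 29 did not overlap between the arrays, nor did those of 172 of the 274 compared probes (62.8%), so this says little beyond the size of spot error. On the third array, of non-malignant ICN1-expressing cells, the miR-451 ratio was 0.017 and its Hy3 signal 11490 units. This lay between tumor and control values, with no test.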

How the data were processed

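The arrays were Exiqon miRCURY LNA miRNA arrays read in 2 colours. Per the labels' protocols, Trizol-purified total RNA of each sample was labelled with Hy3 and the pool with Hy5. Per the file headers, the deposited scanner tables hold, per spot and dye, linear intensity values of signal (mean and median) and of local background (median and SD), together with a quality flag, which is a score. The image software is not given in the sources used here. The deposited table of the authors' processed values appears to hold log2 sample-to-pool values. Column medians were -0.17 for tumor and 0.12 for control, its scale, centring and direction are unknown, and only 1 of its 345 row numbers matched a probe, so beyond these medians only counts were taken from it.

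From the intensity values, spots with flag 3 were dropped (51 on the tumor array, 72 on the control array). Spots with flags 2 and 4, seen in the files as empty and negative spots, were kept. Background was corrected by normexp (offset 50), and global loess was fitted per array (limma 3.58.1 in R 4.3.3), giving weight 0 to mismatch and control spots. The ratios of a probe's spots were averaged. A probe was compared where it was detected on 1 array or both and measured on both, and 2-fold was the size rule. Where a probe was not detected on 1 array, "at least N-fold" compares normalized Hy3 (loess, then Aquantile) on the brighter array with the dim array's lowest detected value, or with the probe's own dim value if that is higher. It is open to dye bias, since there was no dye swap. Names were matched to RefSeq mouse genes and mature sequences, found for 93 compared probes. No test between groups was possible, with 1 array each, and precision is limited by the number of arrays.

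The members and lists were chosen with earlier results of these data known. Named were the 20 lowest and 10 highest probes, list members, the 10 brightest, both arms, seed groups of 3 or more, and the 3 probes inside and outside 2-fold, of which a part is printed. Alternatives changed the offset, background, signal column, normalization, channel, flags, spot summary and detection filter. Python 3.11.15, pandas 2.3.3, numpy 2.4.6, scipy 1.17.1 and matplotlib 3.10.9 were used.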

Additional observations from a re-analysis of the deposited data

Results flagged for a closer look

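The array also carried 736 probes with no known human target. They were left out of the counts of human-named probes, but their spots took part in the loess fit. Of these, 488 were detected on the tumor array and 456 on the control array. At 2-fold, 5 were higher in tumor cells and 11 were lower, among 496 compared, with differences between -2.02 and 1.90 and a median of 0.035. What these probes measure in mouse RNA is not known.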

How the results depend on the processing

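The reported counts, 3 higher and 26 lower in tumor cells, ran from 2 to 4 higher and 18 to 34 lower over the alternatives fixed beforehand. With loess fitted on probes named for a mouse miRNA gene, chosen after seeing the data, they were 16 higher and 9 lower, and miR-142-3p turned to 0.13; fitting on those probes sets their own centre near 0. miR-129 stood at 0.95 with no normalization. With the Hy3 channel alone, 15 of the 19 lower probes were among those reported. In the authors' deposited table, 98 of 345 rows had values on both arrays, of which 23 were 2-fold apart one way and 5 the other way, with the direction not settled. Signal close to background, at least in tumor cells, limits miR-29b, miR-29c, miR-195, miR-497, miR-150, miR-27a, miR-31, miR-144, miR-22, miR-30d, miR-92, miR-181a and miR-181a*, among others. No paired analysis was possible because each group has 1 array. No replicate could be left out for the same reason.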
